A study of Mus musculus with 4 samples.

Results

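The pericentral Wnt target genes described here are Glul, Oat, Cyp2e1, Axin2, Lgr5, Tbx3, Slc1a2, Lect2, Rhbg and Rgn. They were chosen by symbol in the platform annotation, and all 10 were measured, by 22 of the 45101 probe sets on the array. Of the probe sets of a gene, the one with the highest mean stands for it here (the main probe set), which gave 18194 genes in all. Liver mRNA was profiled on 4 Affymetrix mouse GeneChips, 1 for each of 4 genotypes, and the RNA on an array was an equal mixture from 3 non-fasted mice labelled as 5-week-old males. DS6 Myc mice have Rps6 deleted in liver and overexpress c-Myc from an albumin-driven transgene (Alb-c-Myc), and DS6 mice have Rps6 deleted without the transgene. Myc mice carry Alb-c-Myc with Rps6 not deleted, and WT mice have neither change. DS6 and Myc below always name these genotypes. In DS6 mice the floxed Rps6 alleles are removed by Cre under the albumin promoter, which is active in hepatoblasts and their descendants, and the study describes the deletion as incomplete and regional. The study's array table gives WT livers as carrying the floxed Rps6 alleles without Cre, and all mice came from a mixed hybrid strain.

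In the liver lobule, endothelial cells of the central vein release Wnt ligands and R-spondin 3, which stabilize β-catenin in the hepatocytes next to the vein. With TCF and LEF factors, β-catenin then keeps on a pericentral program that includes glutamine synthesis, glutamate and ammonium transport and drug oxidation, while periportal hepatocytes carry out ureagenesis and gluconeogenesis. Axin2 and Lgr5 are widely used as readouts of this pathway, and Glul as a marker of the innermost layer of pericentral hepatocytes.

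The values are on a log2 scale, so a log2 ratio of 1 is 2-fold, and 2-fold was the size used for counts. With 1 array per genotype the ratios have no replicate check, and no test, standard error or p-value is given. As a yardstick, the SD of the log2 ratio between probe sets of 1 gene was 0.27 in DS6 over WT, 0.24 in DS6 Myc over Myc and 0.14 in Myc over WT, which is not a replicate error. A change in RNA per cell and a change in the share of pericentral cells cannot be told apart in whole-liver RNA.

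The WT array stood apart from the other arrays in RNAs of other origin. Xist, which coats the inactive X chromosome of females, had log2 values of 6.33 in DS6 Myc, 5.88 in DS6, 6.29 in Myc and 11.84 in WT, although Y-linked Eif2s3y was present on every array (8.67 to 9.11). Each of 9 measured pancreatic acinar genes was lower in DS6 than in WT by 2-fold or more, with list medians of 6.90 in DS6 Myc, 6.21 in DS6, 7.61 in Myc and 9.56 in WT. DS6 is therefore set against Myc too, a ratio that does not use the WT array, although these 2 arrays also differ in the transgene. The 9 acinar genes were lower in DS6 than in Myc as well, by log2 ratios from -1.44 to -0.37. Of these, 2 were at least 2-fold lower, where 2.23% of all genes were. Hepatocyte markers were on every array, with albumin between 15.38 and 15.46. The 9 probe sets shared by Rps6 and its pseudogene had a median log2 ratio of -1.76 in DS6 Myc over Myc and of -0.29 in DS6 over WT, and the 9 were lower in both. Another 2 probe sets carry the Rps6 symbol only, and they moved in opposite directions. The first had log2 values of 5.64 in DS6 Myc, 6.30 in DS6, 8.13 in Myc and 7.10 in WT, and the other had 8.25, 7.48, 5.65 and 6.01 in that order, so this 1 was higher in both comparisons.

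Pericentral Wnt targets did not move as a block. In DS6 livers 2 of 10 genes, Slc1a2 and Tbx3, lay 2-fold or more below WT, where 2.54% of all genes were lower, and 0 of 10 were higher, where 7.24% of all genes were. The median log2 ratio of the 10 genes was -0.31, against -0.05 over all genes, and 9 lay below 0, where 56.0% of all genes did. In Myc over WT only Oat of the 10 was at least 2-fold lower, where 0.335% of all genes were, and 0 were higher, where 0.418% were. The median was -0.50, against 0.00 over all genes, and 9 lay below 0, where 49.1% of all genes did. Rps6 deletion on top of the transgene, DS6 Myc over Myc, gave 2 genes (Oat and Lect2) that were at least 2-fold higher, where 1.99% of all genes were, and 1 (Slc1a2) was lower, where 1.36% were, with a median of 0.27 against -0.01. With both changes, DS6 Myc over WT, Slc1a2 was lower, where 1.80% of all genes were, and 0 of 10 were higher, where 3.00% were, with a median of -0.36. The comparisons over WT share that array, and the members' counts are small, so each gene is described by its own values below.

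**Figure D1:**
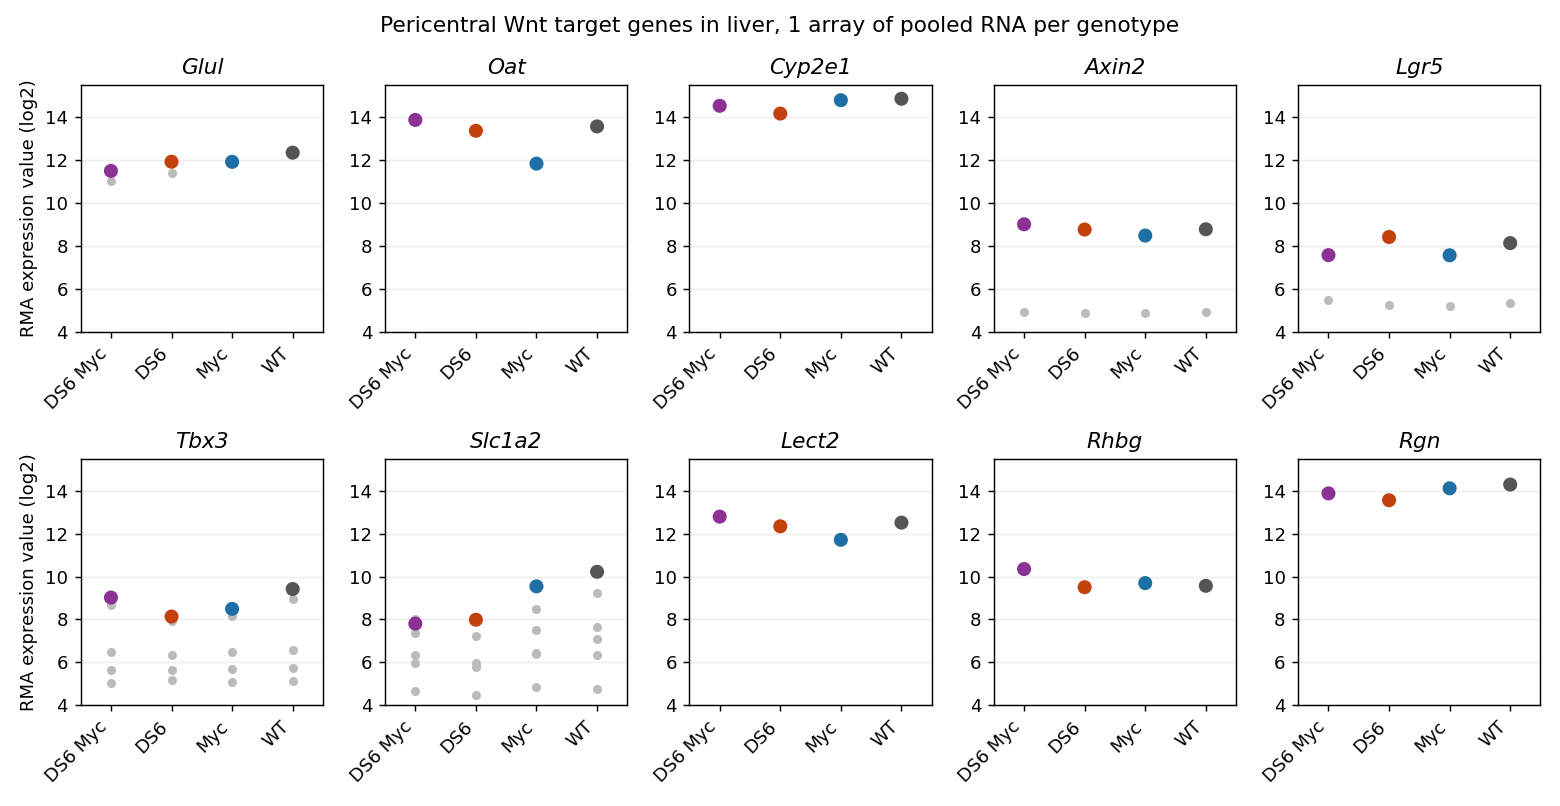
RMA expression values (log2, vertical axis) of the 10 genes on each array (horizontal axis, 1 pool of 3 livers per genotype); coloured points are the probe set that stands for the gene and grey points its other probe sets. Slc1a2 lies at 7.81 in DS6 Myc and 7.99 in DS6, against 9.55 in Myc and 10.22 in WT, and Oat is lowest in Myc, at 11.83.

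Promoter sequence is shown for the genes that passed 2-fold and have an entry (Slc1a2, Lect2 and Oat), for Cyp2e1, which also holds a motif, and for Glul, the usual marker of the zone. RefSeq promoters of GRCm38.p6, from 250 bases before to 50 after the start of the gene, were found for 6 of the 10 genes, and were searched on both strands for the letters CAAAG preceded by AA, AT, TA or TT, the core that TCF and LEF factors recognize. These letters were in 3 of the 6 promoters (Slc1a2, Lect2 and Cyp2e1), and in 16.9% of all 32851 promoters of this length. They begin 207 bases before the start in Slc1a2, 32 before in Lect2 and 135 before in Cyp2e1, where the match is on the other strand. The windows are chr2:102706188-102706487 on the plus strand for Slc1a2, chr13:56548489-56548788 on the minus strand for Lect2, chr7:140763569-140763868 on the plus strand for Cyp2e1, chr7:132576349-132576648 on the minus strand for Oat and chr1:153899679-153899978 on the plus strand for Glul. A match is a description of the letters only, and capitals mark it in the sequences, written 5′ to 3′ on the gene's strand.
Slc1a2: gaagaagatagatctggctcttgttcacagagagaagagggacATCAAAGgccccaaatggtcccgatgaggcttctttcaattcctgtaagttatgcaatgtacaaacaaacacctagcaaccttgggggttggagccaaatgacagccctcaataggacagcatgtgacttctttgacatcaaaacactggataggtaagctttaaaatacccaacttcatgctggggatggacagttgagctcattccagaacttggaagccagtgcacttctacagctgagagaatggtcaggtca
Lect2: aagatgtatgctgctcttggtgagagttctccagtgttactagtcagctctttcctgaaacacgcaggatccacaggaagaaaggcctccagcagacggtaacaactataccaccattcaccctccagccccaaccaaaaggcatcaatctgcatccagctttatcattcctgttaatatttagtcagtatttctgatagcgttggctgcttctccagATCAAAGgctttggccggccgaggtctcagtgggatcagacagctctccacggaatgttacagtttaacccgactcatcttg
Cyp2e1: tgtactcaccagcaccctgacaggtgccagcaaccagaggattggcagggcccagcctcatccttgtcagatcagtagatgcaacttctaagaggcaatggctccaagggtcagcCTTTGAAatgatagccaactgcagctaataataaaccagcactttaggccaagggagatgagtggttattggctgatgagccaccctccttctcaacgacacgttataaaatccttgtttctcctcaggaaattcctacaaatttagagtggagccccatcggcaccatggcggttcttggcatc
Oat: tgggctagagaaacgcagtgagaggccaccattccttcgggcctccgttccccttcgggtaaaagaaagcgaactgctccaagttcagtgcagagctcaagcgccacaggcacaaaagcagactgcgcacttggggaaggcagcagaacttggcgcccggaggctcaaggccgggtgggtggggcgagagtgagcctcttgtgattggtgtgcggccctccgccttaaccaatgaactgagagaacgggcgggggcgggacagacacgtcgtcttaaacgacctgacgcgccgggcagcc
Glul: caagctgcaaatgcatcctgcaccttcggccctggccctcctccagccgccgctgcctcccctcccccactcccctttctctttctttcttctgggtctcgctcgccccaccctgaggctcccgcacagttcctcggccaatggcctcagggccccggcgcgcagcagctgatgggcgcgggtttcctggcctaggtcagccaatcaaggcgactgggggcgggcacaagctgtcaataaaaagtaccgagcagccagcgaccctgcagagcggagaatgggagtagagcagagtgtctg

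Genes that take up and fix ammonia and glutamate came next, since this is the defining task of the cells around the central vein. Slc1a2, which encodes the glutamate transporter GLT-1, was low on both Rps6-deleted arrays. Its main probe set had log2 values of 7.81 in DS6 Myc, 7.99 in DS6, 9.55 in Myc and 10.22 in WT. It was 4.71-fold lower in DS6 than in WT (log2 ratio -2.24) and 3.34-fold lower in DS6 Myc than in Myc (-1.74), a pair of comparisons that share no array. With Myc in place of WT the DS6 ratio was -1.56. The size depended on the probe set. All 6 probe sets of Slc1a2, 1 of them shared with Gm13872, were lower in DS6 than in WT, by log2 ratios from -2.24 to -0.31, with 3 past 2-fold. All 6 were also lower in DS6 Myc than in Myc, from -1.74 to -0.01, with 1 past 2-fold. The probe set at -0.31 in DS6 over WT had a mean log2 value of only 4.69, and may lie at background. The one at -0.01 in DS6 Myc over Myc had a mean of 6.26. Averaged over its probe sets annotated to it alone, these 2 among them, the gene had -1.07 in DS6 over WT and -0.58 in DS6 Myc over Myc, which is under 2-fold.

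Glul encodes glutamine synthetase, which condenses ammonia with glutamate, and its 2 probe sets gave different sizes. The main one had log2 values of 11.49 in DS6 Myc, 11.92 in DS6, 11.91 in Myc and 12.34 in WT, and the other had 11.04, 11.38, 11.97 and 12.38 in the same order of genotypes. WT was highest and DS6 Myc lowest by both. In DS6 over WT the ratio was -0.42 by the main probe set and -0.997 by the other, which is just short of 2-fold. The values were -0.42 and -0.93 in DS6 Myc over Myc, -0.43 and -0.41 in Myc over WT, and -0.85 and -1.34 in DS6 Myc over WT. With Myc in place of WT the DS6 ratio was 0.01 by the main probe set and -0.59 by the other.

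Oat, the mitochondrial ornithine aminotransferase that links ornithine to glutamate and proline, was low on the Myc array alone. Its single probe set had 13.87 in DS6 Myc, 13.36 in DS6, 11.83 in Myc and 13.57 in WT. It was 3.33-fold lower in Myc than in WT (log2 ratio -1.74) and 4.11-fold higher in DS6 Myc than in Myc (2.04). In DS6 over WT its ratio was -0.20, inside the spread between probe sets, and DS6 Myc was 0.30 above WT. Both large Oat ratios use the Myc array, so neither stands apart from the other.

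Rhbg, an ammonium transporter of the basolateral membrane, had log2 values of 10.35 in DS6 Myc, 9.51 in DS6, 9.70 in Myc and 9.57 in WT. Only the DS6 Myc value stood off, by 0.66 over Myc and 0.78 over WT, while DS6 over WT was -0.07. Among the 4 genes of ammonia and glutamate handling, Glul was thus lowest in DS6 Myc, whereas Oat and Rhbg were highest there, and Slc1a2 was low in both DS6 Myc and DS6, with 4 of its 6 probe sets higher in DS6 Myc than in DS6.

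The pathway readouts and the transcription factor formed a second group. Axin2, a scaffold of the β-catenin destruction complex and a feedback target of the pathway, had 9.001 in DS6 Myc, 8.76 in DS6, 8.47 in Myc and 8.77 in WT by its main probe set. Its ratio was -0.01 in DS6 over WT, 0.53 in DS6 Myc over Myc and -0.29 in Myc over WT. The other probe set of Axin2 lay between 4.87 and 4.92 on every array. Lgr5, a receptor for R-spondins, had 7.56 in DS6 Myc, 8.41 in DS6, 7.55 in Myc and 8.12 in WT. By the main probe sets, it was the only 1 of the 10 genes above its WT value in DS6. The log2 ratio was 0.28, close to the spread between probe sets. Both arrays with the transgene were lower for Lgr5, by -0.57 in Myc over WT and -0.85 in DS6 Myc over DS6. Its other probe set was under 6 on every array. There the ratio was -0.06 in DS6 over WT, -0.11 in Myc over WT and 0.20 in DS6 Myc over DS6.

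Tbx3, a T-box transcription factor and direct β-catenin target in liver, was lower in DS6 than in WT but not in DS6 Myc than in Myc. Its main probe set had 9.02 in DS6 Myc, 8.14 in DS6, 8.49 in Myc and 9.42 in WT, and its second had 8.66, 7.92, 8.14 and 8.94 in that order. The ratio in DS6 over WT was -1.28 by the main probe set (2.43-fold lower) and -1.02 by the second. DS6 Myc over Myc had 0.53 and 0.52. Myc over WT had -0.93 and -0.80, so WT was the high array. Tbx3 over Myc was only -0.36 in DS6, and averaged over its 5 probe sets it was -0.52 in DS6 over WT, both under 2-fold. The other 3 probe sets of Tbx3, which enter that average, had ratios in DS6 over WT of -0.24 to 0.04. Their mean log2 values were low, at 5.10, 5.68 and 6.47, against 8.77 and 8.42 for the main and second probe sets.

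Of the other 3 genes, Cyp2e1 and Rgn had nearly the same pattern. Cyp2e1, the cytochrome P450 that oxidizes ethanol and acetaminophen, had 14.53 in DS6 Myc, 14.16 in DS6, 14.79 in Myc and 14.86 in WT. Rgn, which encodes regucalcin, a calcium-binding gluconolactonase, had 13.88 in DS6 Myc, 13.56 in DS6, 14.12 in Myc and 14.29 in WT. Both were lowest in DS6, with ratios over WT of -0.69 for Cyp2e1 (1.62-fold lower) and -0.73 for Rgn (1.66-fold lower). Both had smaller ratios in DS6 Myc over Myc, at -0.26 and -0.24. Over their 3 ratios to WT, Cyp2e1 and Rgn were the closest pair of the 10 genes, at a Euclidean distance of 0.14. The highest value on any array was 15.46, so ratios of Cyp2e1 come from near the top of the scale. Rgn is on the X chromosome, and its WT value comes from the array that carried Xist.

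Lect2, a hepatokine whose gene is a known β-catenin target in liver, followed Oat in direction. It had 12.80 in DS6 Myc, 12.35 in DS6, 11.72 in Myc and 12.52 in WT. The Myc array was again lowest, by -0.80 relative to WT, and DS6 Myc was 2.12-fold above it (log2 ratio 1.08). DS6 over WT had -0.17.

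**Figure D2:**
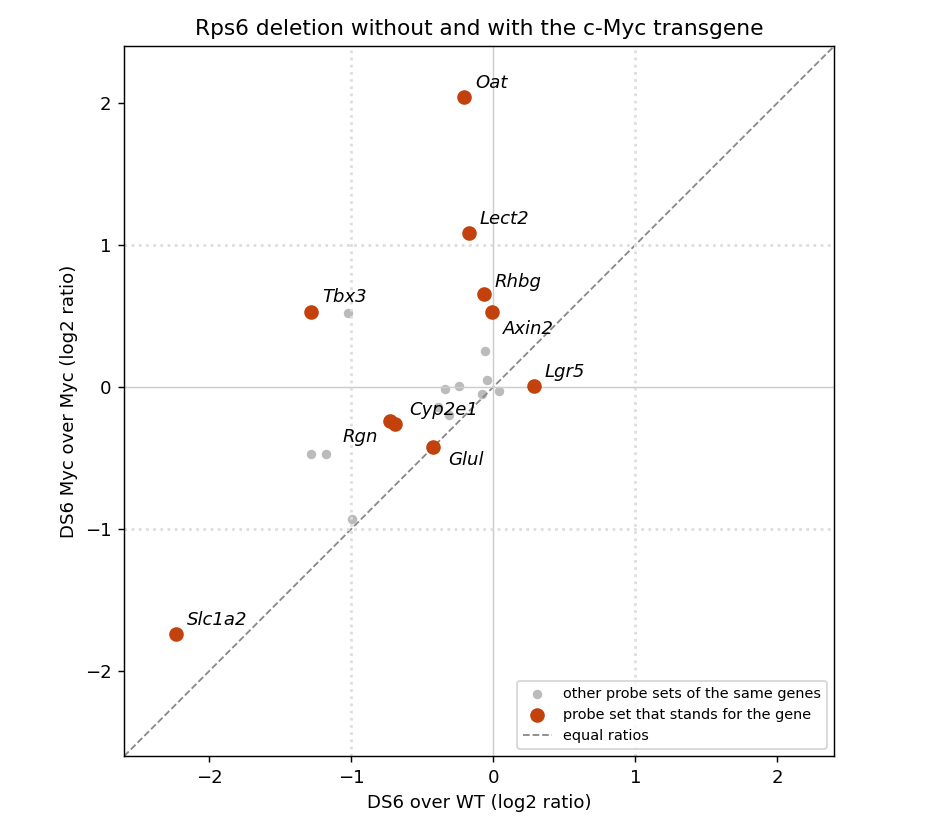
Log2 ratio of each gene for DS6 Myc over Myc (vertical axis) and DS6 over WT (horizontal axis), 1 array per genotype; red points are the probe set that stands for the gene, grey points its other probe sets, the dashed line marks equal ratios and dotted lines mark 2-fold. Slc1a2 lies low on both axes (-1.74 and -2.24), while Oat (2.04 and -0.20), Lect2 (1.08 and -0.17) and Tbx3 (0.53 and -1.28) lie far above the line.

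Setting the effect of Rps6 deletion with the transgene against that without it separated the genes. The ratio in DS6 Myc over Myc minus that in DS6 over WT was 2.24 for Oat, 1.81 for Tbx3, 1.25 for Lect2, 0.72 for Rhbg, 0.54 for Axin2 and 0.43 for Cyp2e1. It was 0.00 for Glul by its main probe set, 0.49 for Slc1a2, 0.49 for Rgn and -0.28 for Lgr5. This difference uses all 4 arrays and was not tested. It does not compare equal deletions, since the study reports more recombination of the floxed allele in DS6 Myc than in DS6 livers. The study also reports that Rps6 protein was unchanged in DS6 Myc livers although Rps6 mRNA was lower, so the RNA values below do not give the protein level. The 9 shared Rps6 probe sets had medians of -1.76 in DS6 Myc over Myc and -0.29 in DS6 over WT. The 2 probe sets with the Rps6 symbol only moved in opposite directions. DS6 Myc over DS6 uses neither the WT nor the Myc array, and there 0 of 10 genes passed 2-fold in either direction, where 0.769% of all genes were higher and 4.29% lower. Its median was 0.34, against 0.05 over all genes, with Tbx3 (0.89), Rhbg (0.85) and Lgr5 (-0.85) at the ends. DS6 over Myc, the other ratio without the WT array, had Oat higher (1.53), where 7.00% of all genes were, and Slc1a2 lower (-1.56), where 2.23% were. The other genes had 0.85 (Lgr5), 0.63 (Lect2), 0.28 (Axin2), 0.01 (Glul), -0.19 (Rhbg), -0.36 (Tbx3), -0.56 (Rgn) and -0.63 (Cyp2e1), so 5 of the 10 lay below 0 in DS6 over Myc, where 57.3% of all genes did.

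Other pericentral hepatocyte genes included some that were higher and some that were lower. For this and the lists below, 2.54% of all genes were at least 2-fold lower and 7.24% higher in DS6 over WT. The shares were 1.36% and 1.99% in DS6 Myc over Myc, and 0.335% and 0.418% in Myc over WT. Whether any list differs from these shares was not tested. Of 20 measured genes, 3 were at least 2-fold lower in DS6 than in WT and 2 were higher, with a median log2 ratio of -0.31. The lower ones were Cyp2c37 (-1.68), a P450 with close relatives on the array, Cyp27a1 (-1.35), a sterol hydroxylase of bile acid synthesis, and Cyp1a2 (-1.29), which oxidizes caffeine. The higher ones were Slc13a3 (1.62), a dicarboxylate transporter, and Gstm3 (1.44), a glutathione transferase. DS6 Myc over Myc had 3 higher and 0 lower (median 0.26), namely Cyp2c37 (2.65), Lhpp (1.67), a phosphatase gene, and Gstm3 (1.54), which was also higher in DS6 Myc than in WT (1.58). In Myc over WT 2 were lower and 0 higher (median -0.20), namely Lhpp (-1.14) and Cyp2c37 (-5.33), which had log2 values of 11.07 in DS6 Myc, 12.07 in DS6, 8.41 in Myc and 13.75 in WT. Oat, Lect2, Lhpp and Cyp2c37 were thus lowest on the same array, Myc, and each was at least 2-fold higher in DS6 Myc than there. Both statements rest on the Myc array, so neither stands apart from the other. Gstm3, also past 2-fold in DS6 Myc over Myc, was instead lowest in WT, at 12.78 against 12.82 in Myc.

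Periportal hepatocyte genes, the opposite pole of the lobule, had 3 of 18 measured members at least 2-fold lower in DS6 than in WT and 3 higher (median -0.09). The lower ones were Cyp2f2 (-1.58), a P450 used as a periportal marker, Pigr (-1.39), the polymeric immunoglobulin receptor, and Hal (-1.37), which breaks down histidine. The higher ones were Cdh1 (1.68), the E-cadherin gene, which bile duct cells express too, Apoa4 (1.39), an apolipoprotein, and Aldh1b1 (1.18), a mitochondrial aldehyde dehydrogenase. DS6 Myc over Myc had 2 lower, Pigr (-1.60) and G6pc (-1.54), the glucose 6-phosphatase gene, and 1 higher, Etnppl (1.34), a phospholyase gene, with a median of -0.18. None of the 18 passed 2-fold in Myc over WT (median -0.11). The medians of the pericentral and periportal lists lay on either side of 0 in DS6 Myc over Myc, and both were below 0 in DS6 over WT. Both were also below 0 in DS6 Myc over WT, at -0.11 for the pericentral and -0.31 for the periportal list. The 2 signs in DS6 Myc over Myc thus depend on the Myc array as reference. Whether the lists differ was not tested.

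Of 14 measured genes that handle glutamine, ornithine and ammonium around these enzymes, 2 were at least 2-fold lower in DS6 than in WT and 2 were higher (median -0.21). Prodh, the proline dehydrogenase gene, had -1.61 and Otc, the urea cycle enzyme that shares ornithine as substrate with Oat, had -1.12. Slc1a4, a transporter of small neutral amino acids, had 2.03, and Aldh18a1, which makes the precursor of proline and ornithine, had 1.25. The DS6 Myc over Myc ratios were -1.22 for Prodh, -0.98 for Otc, 1.08 for Slc1a4 and 0.40 for Aldh18a1. Over Myc, Otc in DS6 had -1.14 and Prodh had -1.47, so these lower values did not rest on the WT array. Cps1 and Arg1, which open and close the urea cycle, had ratios of 0.22 and 0.01 in DS6 Myc over Myc and of 0.06 and -0.07 in DS6 over WT.

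**Figure D3:**
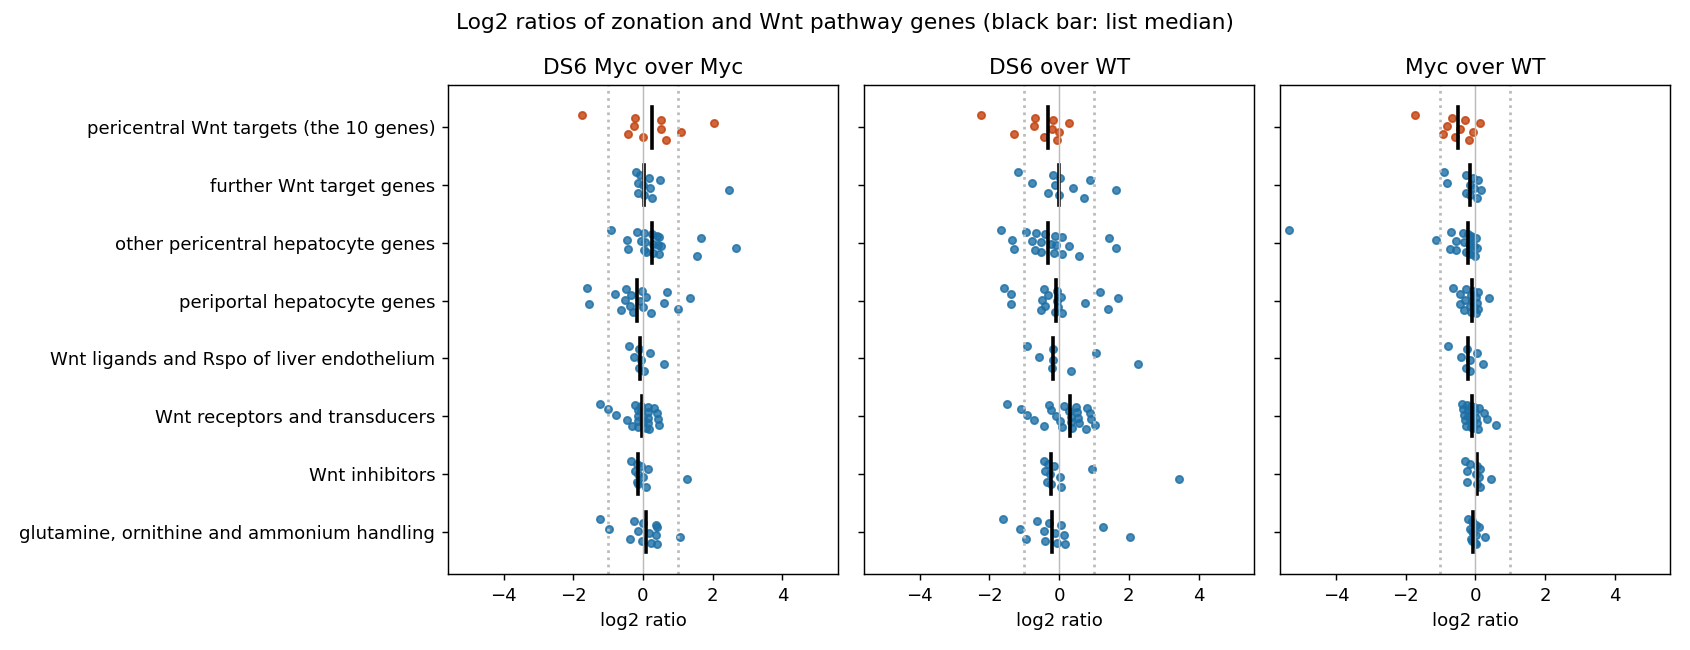
Log2 ratios (horizontal axis) of the 10 pericentral Wnt target genes (red) and of 7 other gene lists (blue) in 3 comparisons, 1 array per genotype; each point is 1 gene, black bars are list medians and dotted lines mark 2-fold. Most genes lie within 2-fold, and the far point in Myc over WT is Cyp2c37 at -5.33.

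Along the Wnt pathway itself, ligand and R-spondin genes gave 2 of 8 at least 2-fold higher in DS6 than in WT and 0 lower. Wnt4 had log2 values of 8.03 in DS6 Myc, 10.19 in DS6, 8.15 in Myc and 7.93 in WT, a ratio of 2.25 in DS6 over WT. Rspo3, the R-spondin of central vein endothelium, had 7.81, 8.68, 7.21 and 7.61 in that order, a ratio of 1.06. Wnt2, a ligand of liver endothelium, had a ratio of -0.92, with WT highest at 8.78 against 7.86 in DS6, and -0.13 with Myc as the reference. Wnt9b, the ligand of the central vein, had -0.17. None of the 8 passed 2-fold in DS6 Myc over Myc, with 0.60 for Rspo3, 0.21 for Wnt2 and -0.12 for Wnt4.

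Of 24 receptor and transducer genes, 2 were at least 2-fold lower in DS6 than in WT, the frizzled receptor gene Fzd8 (-1.49) and the R-spondin receptor gene Lgr4 (-1.09), and 1 was higher, Fzd1 (1.04). Both Fzd8 and Lgr4 were also lower in DS6 Myc than in Myc, at -1.23 and -0.99, and 1 of the 24 passed 2-fold there. Lgr4 had log2 values of 10.53 in DS6 Myc, 10.67 in DS6, 11.52 in Myc and 11.76 in WT, so that, like Slc1a2, both Rps6-deleted arrays were below both others. Ctnnb1, the β-catenin gene, had 13.53 in DS6 Myc, 13.87 in DS6, 13.39 in Myc and 13.35 in WT, a ratio of 0.52 in DS6 over WT and 0.14 in DS6 Myc over Myc. Tcf7l2, the main TCF factor gene of liver, had -0.09 and -0.14.

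Of 11 Wnt inhibitor genes, Frzb, a secreted frizzled-related protein, was the 1 that passed 2-fold. It had log2 values of 7.39 in DS6 Myc, 9.12 in DS6, 6.13 in Myc and 5.67 in WT, a ratio of 3.45 in DS6 over WT and 1.26 in DS6 Myc over Myc. The WT value is under 6, and without detection calls it may lie at background, so the size is uncertain. Of 11 further Wnt target genes, Notum, which encodes a secreted Wnt deacylase of pericentral hepatocytes, was at least 2-fold lower in DS6 than in WT, and Ccnd1, the cyclin D1 gene, was higher. Notum had 9.83 in DS6 Myc, 9.28 in DS6, 9.66 in Myc and 10.48 in WT, a ratio of -1.19 in DS6 over WT, of 0.17 in DS6 Myc over Myc and of -0.38 in DS6 over Myc. Ccnd1 had 12.15, 12.23, 9.69 and 10.59 in that order, a ratio of 1.64 in DS6 over WT and 2.46 in DS6 Myc over Myc. The ubiquitin ligase genes of the pathway's feedback loop, Znrf3 and Rnf43, had 0.00 and -0.77 in DS6 over WT.

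Markers of other cells moved with the DS6 array. All 7 measured bile duct and progenitor genes were at least 2-fold higher in DS6 than in WT, with list medians of 7.53 in DS6 Myc, 11.11 in DS6, 6.55 in Myc and 6.77 in WT. Of 7 macrophage genes 6 were higher, with medians of 9.60, 12.10, 8.79 and 8.82 in that order. Of 6 immature hepatocyte genes 5 were higher, with a median log2 ratio of 3.89. Endothelial genes had 2 of 8 higher, Thbd (1.89) and Selp (1.38), and the 9 mature hepatocyte genes had a median of -0.20, with Cebpa at -1.11 alone past 2-fold. The part of these cells in the ratios of pericentral genes was not tested. DS6 Myc over Myc had 2 of the 7 bile duct genes at least 2-fold higher (median 0.79, highest 3.59), 3 of the 7 macrophage genes (median 0.79, highest 1.58) and 4 of the 6 immature hepatocyte genes (median 1.51, highest 2.88).

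By the 3 log2 ratios to WT, the genes most like Glul among 9042 genes with a mean log2 value of 8 or more were Depp1, Map3k2, Cyp4b1, Ethe1 and Ginm1, at Euclidean distances of 0.10 to 0.14. The likeness rests on 4 arrays with a shared WT value. In these genes the ratio was between -0.54 and -0.37 in DS6 over WT and between -0.93 and -0.78 in DS6 Myc over WT. These ranges follow from the choice, which used the same ratios.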

How the data were processed

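Total liver RNA of 3 mice per genotype was pooled and hybridized to 1 Affymetrix mouse GeneChip per genotype. The authors deposited a log2 value for each probe set, made by RMA followed by quantile normalization. RMA and affy are named in the submitters' processing notes, and the sources used here give no versions. Without detection calls or intensities, the number of arrays and the unknown background limit precision. Array medians were 6.85 to 6.88.

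Of 45101 probe sets, 34958 had 1 gene symbol in the platform annotation, 932 several and 9211 none. Log2 ratios between arrays were computed for all genes, with no test. The members, the gene lists (156 of 176 listed entries measured, some genes on more than 1 list) and the comparisons were chosen with earlier results of these data known. Named genes are the 10 members, list genes past 2-fold or needed to show a zone or pathway step, and the 5 nearest to Glul. The genes nearest to Oat and Slc1a2 are named in addition and were chosen after values had been seen. Alternatives were another choice of probe sets, scalings, a filter on means under 6, thresholds of 1.5-fold and 3-fold, and Myc as reference. Loess ratios used lowess in statsmodels. The counting step was checked on simulated arrays. Promoter sequences are from RefSeq (GRCm38.p6). Python 3.11.15, numpy 2.4.6, pandas 2.3.3, statsmodels 0.14.6 and matplotlib 3.10.9 were used.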

Additional observations from a re-analysis of the deposited data

Results flagged for a closer look

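For 5 of the 10 genes the log2 ratio of Rps6 deletion had opposite signs with and without the transgene. The difference between the ratios was not tested. How many of all genes had opposite signs was not counted, so 5 of 10 has no background beside it. Of all genes, 56.0% lay below 0 in DS6 over WT and 51.7% in DS6 Myc over Myc. For Oat it was 2.04 in DS6 Myc over Myc and -0.20 in DS6 over WT, a difference of 2.24. For Tbx3 the values were 0.53 and -1.28 in the same order, a difference of 1.81. For Lect2 they were 1.08 and -0.17, a difference of 1.25. For Rhbg they were 0.66 and -0.07, a difference of 0.72. For Axin2 they were 0.53 and -0.01, a difference of 0.54. Only the Tbx3 ratios both exceeded the spread between probe sets of 1 gene. The extent of Rps6 deletion also differed between these comparisons, as described above.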

How the results depend on the processing

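Median-centring, renewed quantile normalization, loess, the filter on dim genes and leaving out _x_at and _s_at probe sets changed no count of members past 2-fold by more than 1.5 times and moved no member's ratio by more than the spread between probe sets. The median log2 ratio of the 10 genes stayed within that spread in all alternatives run for it. The filter on dim genes could change none of these results, since the main probe set of every member had a mean of 7.91 or more. Leaving out _x_at and _s_at probe sets could change only Tbx3 among the members, because the other main probe sets are of neither kind.

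Counts depended on the threshold and on the probe sets. The share of all genes at 1.5-fold, at 3-fold or with the mean of all probe sets was not counted. These counts are thus given only to show how the members' numbers shift. In DS6 over WT, where 2 genes were lower, 4 were lower at 1.5-fold, 1 at 3-fold, 1 with the mean of all probe sets, and 1 with Myc in place of WT, where 1 was higher (Oat). In Myc over WT 4 were lower at 1.5-fold. In DS6 Myc over WT 2 were lower and 1 was higher at 1.5-fold. In DS6 Myc over Myc 1 was higher at 3-fold, and 0 were lower with the mean of all probe sets. The mean of all probe sets moved 11 of 40 single ratios by more than the spread, all of them in Glul, Lgr5, Tbx3 and Slc1a2. Oat, Cyp2e1, Lect2, Rhbg and Rgn have 1 probe set each, so their ratios, which are among the 40, could not move there. Myc as reference moved 7 of 10. The cause of these shifts was not tested. No paired analysis was possible because each genotype has 1 array.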

Other observations

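Genes closest to Oat by the 3 log2 ratios to WT were looked up after its values had been seen. They were Cyp3a44, Lhpp, Mndal, Hao2 and Cyp2c55, at Euclidean distances of 0.35 to 0.82 among 9042 genes. In Myc over WT they had ratios from -2.29 to -1.14, and in DS6 Myc over Myc from 1.67 to 3.08. Values like those of Oat follow from the choice, which used the same arrays, and are no separate evidence. Hao2, a peroxisomal hydroxyacid oxidase, had log2 values of 11.09 in DS6 Myc, 9.97 in DS6, 9.09 in Myc and 10.88 in WT.

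Genes closest to Slc1a2, looked up in the same way, were Leap2, Il1rap, Acacb, Hamp2 and Ugt3a2, at distances of 0.17 to 0.64. Their likeness to Slc1a2 likewise follows from the choice. Leap2, a liver-derived antimicrobial peptide gene, had log2 values of 9.51 in DS6 Myc and 9.49 in DS6, against 11.13 in Myc and 11.76 in WT. Hamp2, a paralog of the hepcidin gene, had 11.61 and 12.10 in the Rps6-deleted arrays, DS6 Myc and DS6, against 13.83 in Myc and 14.60 in WT.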
